A study of Xenopus tropicalis with 9 samples.

Results

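Whole tails of Xenopus tropicalis tadpoles at stage 63, when the tail is being resorbed, were compared with whole tails at stage 60, before resorption. The members are the 3 stage 63 and the 3 stage 60 whole-tail libraries, chosen by their labels, out of 9 libraries in the study, and all 19921 genes of the count table, of which 14125 had enough counts to be tested. All animals were wild type frogs, and the labels give stage and tissue as the only differences between the groups. The other 3 libraries, of stage 63 tails without their notochord, entered the choice of genes tested, the scaling and the estimate of the spread between libraries. Their levels are cited for a few genes. The labels leave out whether each library is 1 animal or a pool, so p-values below measure only how these libraries vary, and that variation may be technical.

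The tail of a tadpole holds muscle blocks, a notochord, a spinal cord, fin connective tissue, blood vessels and skin, and all of it disappears at the climax of metamorphosis. The trigger is thyroid hormone, which enters cells through membrane transporters and binds nuclear receptors that switch genes on. Known executors are secreted and membrane-bound metalloproteinases that cut collagen, lysosomal enzymes, phagocytes and programmed cell death.

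Levels are given as CPM, the counts of a gene per 1e6 counts of its library after scaling by TMM factors, which correct for the make-up of the RNA; levels of different genes are compared only as TPM, which divides counts by gene length and holds no TMM factor. Differences between stages are therefore read from CPM and not from TPM. Differences are log2 fold changes of stage 63 over stage 60 with an approximate standard error (SE), and a gene was called changed at a Benjamini-Hochberg adjusted p under 0.05 in edgeR's quasi-likelihood test over all tested genes. The 6 libraries held between 26928846 and 34836531 counts, and rank correlations across genes within a group (Spearman) ran from 0.991 to 0.995. Among genes with a mean between 10 and 100 CPM, the median coefficient of variation over the 3 libraries was 5.11% at stage 63 and 5.08% at stage 60; between 1 and 10 CPM it was 8.30% at stage 63 and 11.9% at stage 60. Symbols come from the authors' tables, and they bound what can be said by name. Of 5612 tested genes with a symbol, all but 40 are in the authors' list of genes whose mean FPKM ratio between these same stages was above 2. A named gene is therefore nearly always a gene already chosen as higher at stage 63, and counts of list members below are not independent evidence of direction.

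The RNA of the resorbing tail was spread over more genes. The 100 most counted genes took 39.0%, 38.2% and 37.5% of the counts in the stage 63 libraries, against 53.4%, 52.9% and 53.6% in the stage 60 libraries. The groups did not overlap, and the exact permutation test over the libraries gave p = 0.1, the smallest that 3 against 3 allows. Genes without a symbol held 54.1 ± 0.0905% of the counts at stage 63 and 87.4 ± 0.116% at stage 60 (SD, n = 3 each). Symbols of tested genes come almost only from the authors' list of genes higher at stage 63. That choice favours this direction, so no test of it is given. Of the 100 most counted genes, 29 carry a symbol at stage 63 and 3 at stage 60, and 56 genes stand in both lists of 100. Of the 100 leading genes of stage 60, 93 were called lower at stage 63, 24 of them at least 8-fold. Over all tested genes these shares were 40.8% and 2.43%. Choosing genes by a high level at stage 60 favours a fall. Of the 100 leading genes of stage 63, 34 were called higher, beside 43.0% of all tested genes. In bulk tissue, fewer cells of a type and less RNA per cell cannot be told apart, and this holds for every difference below.

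**Figure D1:**
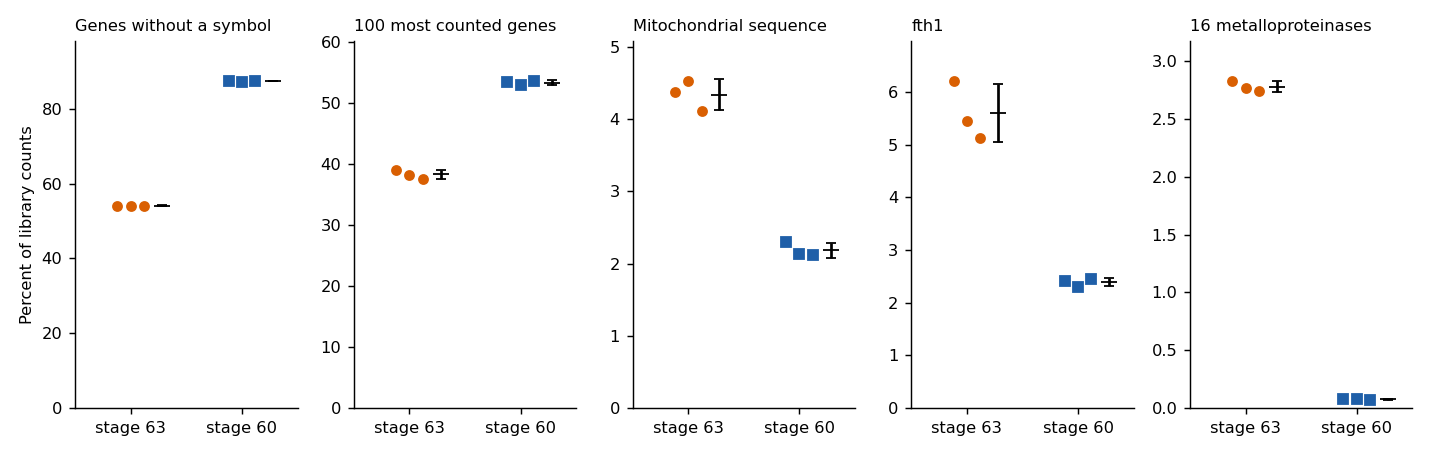
Percent of library counts (y axis, a separate linear scale in each panel) in 3 stage 63 libraries (circles) and 3 stage 60 libraries (squares), with mean and SD beside them, for 5 classes of gene. Genes without a symbol and the 100 most counted genes took less of the stage 63 libraries, while mitochondrial genes, fth1 and 16 metalloproteinases took more, and no panel shows an overlap. Symbols come mostly from genes the authors chose as higher at stage 63, which favours the directions seen for genes with and without a symbol.

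The mitochondrial sequence moved the other way from the leading genes. Its 37 genes took 4.37%, 4.54% and 4.12% of counts at stage 63, against 2.30%, 2.13% and 2.12% at stage 60, a 1.99-fold higher share with no overlap (exact permutation p = 0.1). On the TMM scale the picture was flatter: of 35 mitochondrial genes tested, 8 were called higher and 8 lower, with a median log2 fold change of 0.12. Over all tested genes, 43.0% were called higher and 40.8% lower, with a median of 0.05. COX1, a subunit of cytochrome c oxidase, stood at 12060 ± 876 TPM at stage 63 and 3789 ± 153 TPM at stage 60, while its log2 fold change with TMM was 0.49 ± 0.074. Ferritin heavy chain, the iron-storing cage protein encoded by fth1, was the most abundant named transcript per length at both stages, at 81524 ± 6314 TPM at stage 63 and 27153 ± 839 TPM at stage 60. Its CPM values were 52845, 45434 and 42047 at stage 63, against 35854, 33436 and 36402 at stage 60, a log2 fold change of 0.41 ± 0.094. The gene next to it on scaffold GL173096.1, MGC75752, followed at 26458 ± 2001 TPM at stage 63 and 5743 ± 159 TPM at stage 60; with TMM its log2 fold change was 1.03 ± 0.084. Next in TPM at stage 63 came the lysosomal protease gene ctsv (4534 ± 252), the selenium carrier SELENOP (4005 ± 158) and mmp2 (3854 ± 122). Of these, SELENOP and mmp2 were outside the leading 6 at stage 60, where sparc, a collagen-binding matrix protein, and mgp, an inhibitor of calcification, took their places with 678 ± 37.7 and 589 ± 9.07 TPM.

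Across the whole table, change was the rule. Of the 14125 genes tested, 83.8% were called, 43.0% (6072) higher and 40.8% (5758) lower at stage 63, and 85.4% had groups that did not overlap. Changes of at least 2-fold were called in 23.9% of genes upward and 21.6% downward, and of at least 8-fold in 2.84% (401 genes) upward and 2.43% (343 genes) downward. Symbols were spread unevenly over them: 295 of the 401 genes that rose at least 8-fold carry one, against 19 of the 343 that fell as far. Of the tested genes with a symbol, 92.8% were called higher and 0.624% (35 genes) lower; of those without, 10.2% were called higher and 67.2% lower. The median log2 fold change was 0.05 over all tested genes, 1.02 over genes with a symbol and −0.64 over those without. With library size alone in place of TMM the median of all tested genes lay 0.82 higher, so every value below is relative to a zero that the scaling sets. Counts and medians of the gene lists below are to be read beside the 92.8% and 1.02 of genes with a symbol.

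**Figure D2:**
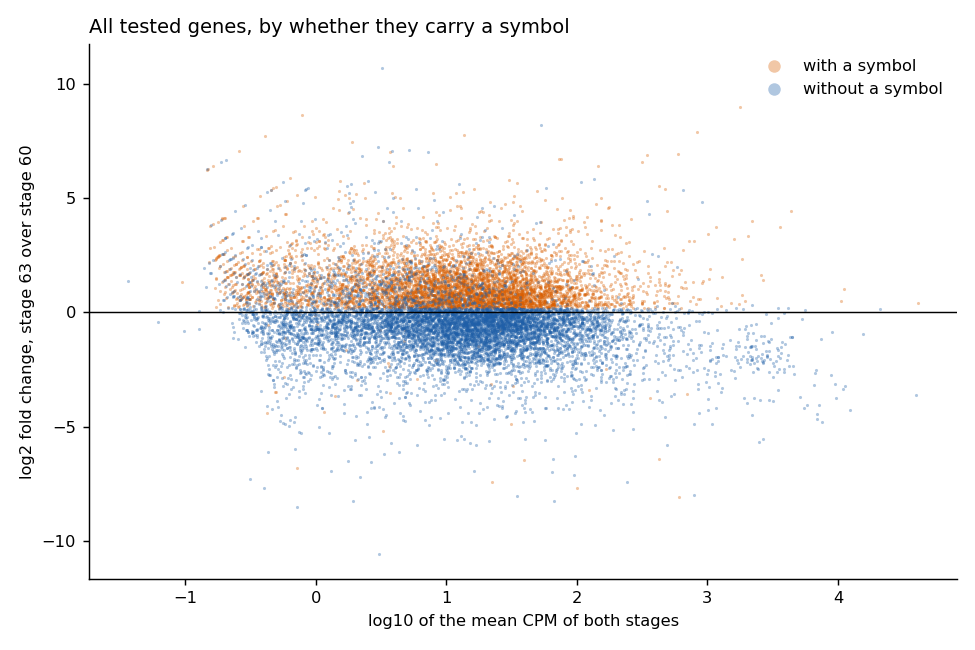
Log2 fold change of stage 63 over stage 60 (y axis) against the log10 of the mean CPM of both stages (x axis) for all 14125 tested genes, in orange with a symbol and in blue without. Orange points lie almost all above 0 and blue points mostly below it, which shows how the authors' selection decides which genes can be named.

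Matrix metalloproteinases, the zinc enzymes that cut collagens and other matrix proteins, showed the highest median of any list. All 16 tested members rose, beside 92.8% of genes with a symbol, with a median log2 fold change of 3.38 against 1.02 over genes with a symbol and 0.05 over all tested genes. Together they took 2.78 ± 0.0456% of all counts at stage 63 and 0.0763 ± 0.00414% at stage 60. The membrane-type enzyme mmp14 had 8702, 8326 and 8198 CPM in stage 63 tails, against 407, 393 and 370 CPM in stage 60 tails. The gelatinase mmp2, whose proenzyme MMP14 activates in mammals with the help of TIMP2, had 7091, 6663 and 6145 CPM at stage 63, against 527, 513 and 472 CPM at stage 60. For timp2 the values were 4008, 3777 and 3447 CPM at stage 63, against 383, 391 and 357 CPM at stage 60. These 3 genes were thus already well expressed before resorption and rose by log2 fold changes of 4.43 ± 0.080, 3.72 ± 0.089 and 3.31 ± 0.085 (adjusted p between 1.62e-17 and 2.34e-19 in edgeR), with no library of one stage near those of the other.

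Several secreted members had low levels at stage 60. mmp9-th, a gelatinase gene of frogs, had 3454, 3520 and 3746 CPM at stage 63, against 12.9, 3.60 and 4.97 CPM at stage 60. mmp13l, named for its likeness to collagenase 3, had 1768, 1613 and 1563 CPM at stage 63, against 9.91, 5.92 and 4.86 CPM at stage 60. mmp11, stromelysin-3, had 686, 673 and 680 CPM at stage 63, against 7.35, 4.33 and 5.52 CPM at stage 60. In all 3 genes the stage 63 libraries were tight while the first stage 60 library was the highest of its group. The stage 60 baseline decides the fold of mmp9-th: its log2 fold change of 8.96 ± 0.41 became 9.71 when stage 60 replicate 1 was left out and 8.64 when replicate 2 was. mmp13, collagenase 3 itself, rose by 5.39 ± 0.10 on the log2 scale from a steadier baseline of 22.0, 22.2 and 21.5 CPM at stage 60. The smallest change in the list was 0.24.

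**Figure D3:**
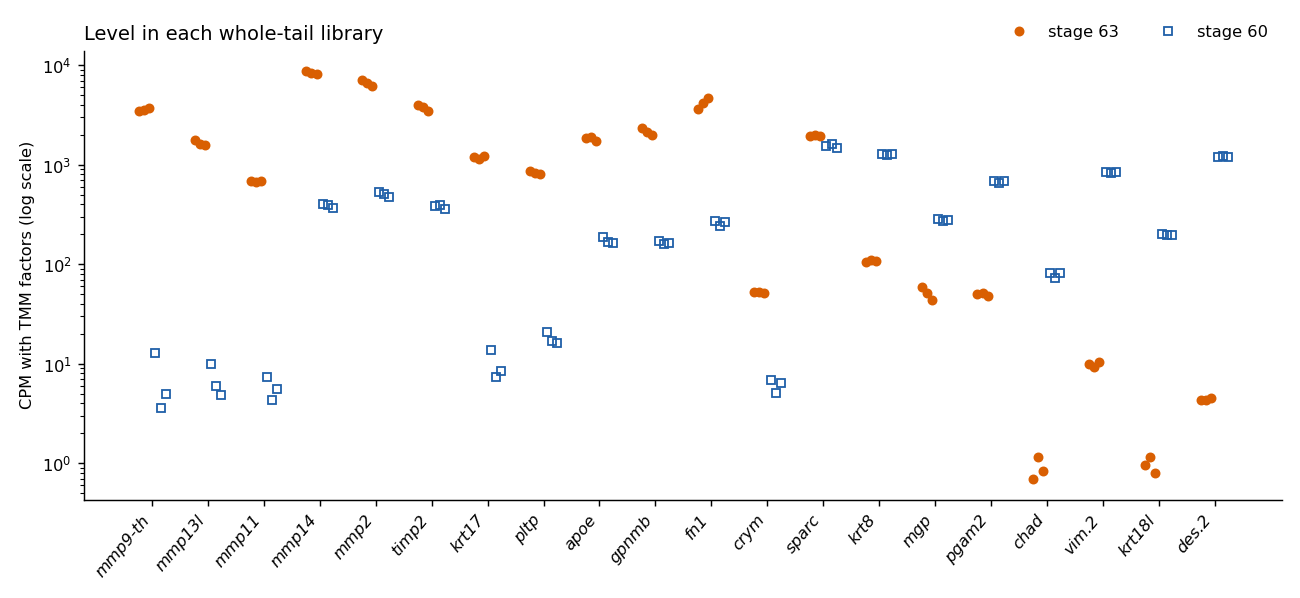
CPM of 20 named genes on a log axis in each stage 63 library (filled circles, left of each pair) and each stage 60 library (open squares). Metalloproteinase, keratin, lipid and matrix genes lie higher at stage 63, sparc lies close to its stage 60 values, and krt8 to des.2 lie lower. The groups overlap in none of the 20. This also holds for 85.4% of all tested genes, and several of the 20 were named by a rule that required it.

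Several of these genes are neighbours. The stretch was chosen after its values were seen, and runs on scaffold GL172755.1 from 181933 to 875123 in the coordinates of the count table; no source used here names the genome build. Reading along it, log2 fold changes were 0.98 for birc2, an inhibitor of apoptosis, 2.05 for mmp3, 5.39 for mmp13, 4.06 for mmp8, 4.16 and 4.08 for a pair of genes with no symbol, −0.27 for another, 7.90 for mmp13l, −0.07 (not called) for another, and 1.16 for DYNC2H1, a motor protein of cilia. The steep changes were thus interrupted by 2 genes with no symbol that had 102 ± 2.70 and 33.3 ± 0.603 CPM at stage 63 and 123 ± 7.47 and 34.96 ± 0.761 CPM at stage 60. On scaffold GL172665.1, mmp9-th (3944807 to 3950896) lies beside mmp9 (3959986 to 3968330), which rose by 3.05 ± 0.089, from its own higher base of 51.3 ± 2.17 CPM at stage 60. Reads shared between such close paralogs could be counted for either, so these levels are uncertain to that extent.

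Keratin genes, which encode the filaments of epithelial cells, split on a single scaffold. On GL172803.1, again chosen after values were seen, krt5.4, krt79 and krt5.2 rose by 4.80 ± 0.12, 3.28 ± 0.078 and 6.56 ± 0.11 on the log2 scale, while krt8, the gene before them, fell by 3.56 ± 0.089. krt5.2 had 664, 582 and 614 CPM at stage 63, against 7.51, 6.44 and 5.74 CPM at stage 60. krt8 had 106, 110 and 108 CPM at stage 63, against 1275, 1260 and 1294 CPM at stage 60. A keratin of stratified epithelia thus rose and one of simple epithelia fell within the same stretch. krt8 was also selected by the authors as higher in whole than in notochord-removed stage 63 tails. It stood at 52.1 ± 7.82 CPM in the latter. Which tissue the fall of krt8 comes from was not tested. A gene without a symbol beyond krt5.2 fell by 4.48 on the log2 scale, to 187 ± 9.33 CPM at stage 63 against 4182 ± 186 CPM at stage 60. Over all 7 keratin genes with a symbol, a list added after the values were seen, 5 rose and krt8 and krt18l fell.

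**Figure D4:**
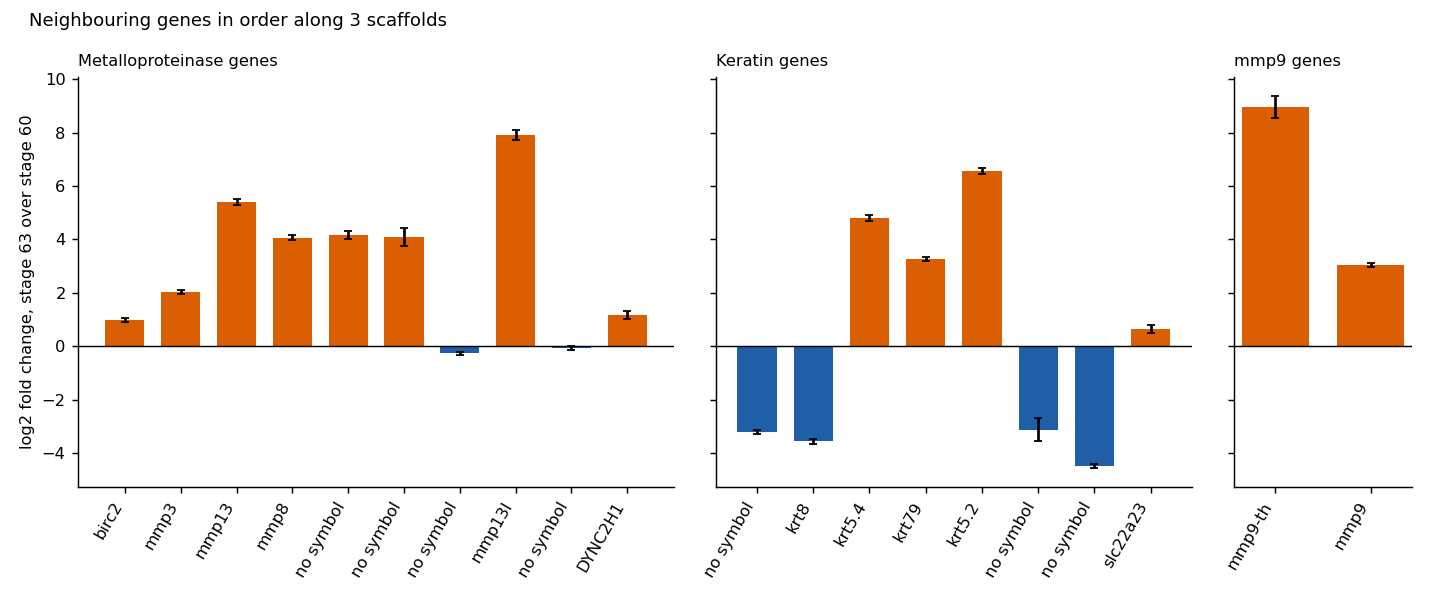
Log2 fold change of stage 63 over stage 60 (bars, with SE) for genes in their order along 3 scaffolds. In the metalloproteinase stretch mmp13 and mmp13l reach 5.39 and 7.90 with 2 near-flat genes around mmp13l, and in the keratin stretch rising genes are flanked by falling ones.

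Further proteases were examined. Among ADAMTS metalloproteinases, enzymes that trim collagens and proteoglycans and a list added after the values were seen, 12 of 14 were called higher and none lower, a share below the 92.8% of genes with a symbol, with a median of 2.88. adamts17 had 131, 141 and 158 CPM at stage 63, against 1.86, 1.03 and 1.27 CPM at stage 60, and adamts9 had 60.9, 58.2 and 57.3 CPM at stage 63, against 1.65, 0.515 and 1.05 CPM at stage 60. prss35, a serine protease-like protein, was as steep, with 157, 149 and 142 CPM at stage 63 against 1.54, 1.39 and 1.33 CPM at stage 60. All 24 tested genes in a list of cathepsins and other proteases, not all of them secreted, rose (median 1.57). They were led by dpp4 (3.47 ± 0.093), pcsk6 (3.41 ± 0.14), HTRA3 (3.13 ± 0.14) and FAP (3.11 ± 0.070), a serine protease of activated fibroblasts. FAP had 1326, 1305 and 1226 CPM at stage 63, against 156, 145 and 147 CPM at stage 60. The cathepsin ctss, of antigen-presenting cells, moved by only 0.38 ± 0.066.

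The lysosome is where engulfed material is digested. All 46 tested hydrolases and membrane proteins were called higher, beside 92.8% of genes with a symbol. Log2 fold changes ran between 0.35 and 2.67, with a median of 1.32 against 1.02 over genes with a symbol. acp5, the tartrate-resistant acid phosphatase of osteoclasts and macrophages, led with 307, 280 and 264 CPM at stage 63 against 44.7, 46.0 and 42.6 CPM at stage 60. The sulfatases arsb and arsa.1 rose by 2.41 ± 0.085 and 2.40 ± 0.095, and npc1, which exports cholesterol from lysosomes, by 2.40 ± 0.11. Autophagy genes moved less, with all 19 higher but a median of 0.85, below the 1.02 of genes with a symbol. Its largest changes were in the initiating kinases ULK2 (2.28 ± 0.087) and ulk1 (1.80 ± 0.075).

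All 24 tested genes of lipid handling rose (median 2.02), beside 92.8% of genes with a symbol (median 1.02). Lists with higher medians included those of metalloproteinases (3.38), endothelium (2.22) and fibroblasts (2.13). The summed level of the lipid genes was 5664 ± 123 CPM at stage 63 and 739 ± 24.5 CPM at stage 60. pltp, the phospholipid transfer protein, had 872, 824 and 814 CPM at stage 63, against 21.04, 16.9 and 16.1 CPM at stage 60. abca1, which loads cholesterol onto lipoproteins, had 798, 986 and 1004 CPM at stage 63, against 46.1, 40.7 and 44.0 CPM at stage 60. apoe, a carrier apolipoprotein, had 1874, 1899 and 1726 CPM at stage 63, against 188, 168 and 163 CPM at stage 60. Log2 fold changes were 5.54 ± 0.10, 4.41 ± 0.10 and 3.41 ± 0.085, and the uptake receptor scarb1 followed at 2.79 ± 0.079. The groups were far apart in each of them.

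Iron, heme and oxidant genes all rose (29 of 29, median 1.56), beside 92.8% of genes with a symbol. Their log2 fold changes lay between 0.18 (nfe2l2) and 5.66 ± 0.11 (slc11a1). slc11a1, which pumps metal ions out of phagosomes, had 65.4, 66.4 and 71.3 CPM at stage 63, against 1.38, 1.34 and 1.27 CPM at stage 60. mpo, the peroxidase of granulocytes, had 179, 165 and 165 CPM at stage 63, against 14.5, 12.7 and 13.7 CPM at stage 60. noxo1.1, an organizer of NADPH oxidase, rose by 3.60 ± 0.13, and txnrd1, thioredoxin reductase, by 4.99 ± 0.27 from only 8 counts over the 3 stage 60 libraries. In glucose handling 17 of 18 genes rose with a median of 1.02, equal to that of genes with a symbol, among them hk2 (2.79 ± 0.15) and pck1 (2.68 ± 0.19). The exception was pgam2, the muscle form of a glycolytic enzyme, described with the falling genes. The single respiratory-chain subunit of its list with a symbol, cox4i2, rose by 2.63 ± 0.13, and no ribosomal protein gene carries a symbol here.

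The thyroid hormone list holds genes of transport, binding, receptors and targets. All 21 tested were called higher (median 1.43), beside 92.8% of genes with a symbol (median 1.02). crym, which binds the hormone in the cytosol, had 53.0, 53.1 and 51.8 CPM at stage 63, against 6.82, 5.10 and 6.35 CPM at stage 60, a log2 fold change of 3.11 ± 0.090. The transporter slc16a10 rose by 2.61 ± 0.089. These log2 fold changes were above those of the receptors, 1.79 for thrb and 1.16 for thra. thrb had 35.9, 34.4 and 35.6 CPM at stage 63, against 10.7, 9.47 and 10.5 CPM at stage 60, and thra had 2.96, 3.30 and 3.26 CPM at stage 63, against 1.49, 1.44 and 1.33 CPM at stage 60. Among genes known as early targets, klf9 rose by 2.54 ± 0.077 and thibz by 1.43 ± 0.083, and the transcription factor nfic by 3.47 ± 0.077. dio2 and dio3, the enzymes that activate and inactivate the hormone, carry no symbol in the authors' tables and are not reported by name.

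The list of steroid, retinoid and vitamin receptors also holds enzymes of retinoic acid synthesis and a peptide hormone receptor. Of its 17 tested genes, 16 rose (median 1.34), beside 92.8% of genes with a symbol (median 1.02). The mineralocorticoid receptor nr3c2 changed most, with 29.7, 33.7 and 31.6 CPM at stage 63 against 5.65, 5.41 and 5.97 CPM at stage 60. The orphan receptors nr2f2 and nr2f6 rose by 1.97 ± 0.11 and 1.71 ± 0.088, and aldh1a3, which makes retinoic acid, by 1.69 ± 0.099. crhr1.1, a receptor for corticotropin-releasing hormone, had 22.3, 19.9 and 19.8 CPM at stage 63, against 29.3, 28.8 and 28.9 CPM at stage 60. It was called lower (−0.49 ± 0.075) with TMM but stood at 0.33 with library size alone, so its direction depends on the scaling. In stage 63 tails without a notochord crhr1.1 had 0.532 ± 0.116 CPM.

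Many genes that build matrix rose alongside those that cut it. Of 15 fibrillar and network collagen genes 14 were called higher and none lower (median 1.87). This stands beside 92.8% of genes with a symbol called higher (median 1.02). COL9A1, a collagen listed with the notochord and cartilage genes, was called lower (−3.16 ± 0.096). col3a1, a fibrillar collagen of soft connective tissue, had 2659, 2833 and 3181 CPM at stage 63, against 332, 308 and 312 CPM at stage 60. The minor fibrillar collagens col5a1 and COL5A2 rose by 3.06 ± 0.076 and 2.82 ± 0.074, and col27a1 by 2.87 ± 0.077. Of 19 crosslinking and processing genes 18 rose, led by the lysyl oxidase relative loxl3 (3.79 ± 0.19), the procollagen proteases tll1 (3.52 ± 0.20) and adamts2 (3.48 ± 0.097), and mrc2 (3.41 ± 0.13), a receptor that takes up cut collagen. Among 22 hyaluronan and proteoglycan genes 21 rose (median 1.71), with bgn, biglycan, at 1469, 1424 and 1371 CPM at stage 63 against 169, 163 and 155 CPM at stage 60. The syndecan sdc3, the small proteoglycan ogn and the heparan sulfatase sulf1 rose by 3.51 ± 0.11, 3.49 ± 0.089 and 3.22 ± 0.16.

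All 25 integrin and focal adhesion genes rose (median 1.56), most of all itga2 (3.62 ± 0.12), a collagen receptor subunit, and itga5 (3.33 ± 0.21), a fibronectin receptor subunit. Fibronectin itself, fn1, had 3656, 4174 and 4657 CPM at stage 63, against 275, 245 and 267 CPM at stage 60. It belongs to the fibroblast list, of which 23 of 25 genes rose (median 2.13), beside 92.8% of genes with a symbol (median 1.02). cthrc1, a marker of matrix-producing fibroblasts in mammals, had 236, 225 and 213 CPM at stage 63, against 14.5, 12.4 and 11.3 CPM at stage 60, and thbs2 rose by 3.42 ± 0.085. sparc, one of the same list and among the leading genes at stage 60, changed little, with 1933, 1989 and 1953 CPM at stage 63 against 1560, 1610 and 1478 CPM at stage 60 (0.34 ± 0.065). The member that fell was vim.2.

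Of 36 myeloid cell markers, 34 rose (median 1.42), beside 92.8% of genes with a symbol (median 1.02). Their summed level was 3802 ± 36.1 CPM at stage 63 and 1503 ± 16.2 CPM at stage 60. mmp8, the neutrophil collagenase in mammals, had 495, 506 and 466 CPM at stage 63, against 31.3, 26.9 and 29.7 CPM at stage 60. Receptors that take up dying cells and lipoproteins were among the largest changes of the phagocyte list, in which 29 of 30 rose: axl by 3.95 ± 0.088 and the scavenger receptor msr1 by 3.38 ± 0.085. cybb, the oxidase subunit of phagocytes, had 23.0, 24.4 and 25.6 CPM at stage 63, against 4.10, 3.96 and 3.81 CPM at stage 60. The antigen-presentation chaperone cd74, in contrast, was close to flat at 0.19 ± 0.071. All 14 lymphocyte markers rose (median 1.36). FOXP3, the factor of regulatory T cells in mammals, had 14.5, 16.2 and 15.5 CPM at stage 63, against 1.44, 0.669 and 1.44 CPM at stage 60, with no overlap.

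All 26 cytokine and chemokine genes rose (median 1.43), beside 92.8% of genes with a symbol (median 1.02). They were led by the receptor cxcr4 and, at 2.93 ± 0.16, its ligand cxcl12. The receptor had 38.8, 41.3 and 40.0 CPM at stage 63, against 2.45, 2.37 and 2.71 CPM at stage 60. Also among the 4 largest were il6st, the shared receptor of interleukin 6 type cytokines (2.76 ± 0.089), and TNFSF10, a death ligand (2.47 ± 0.11). Innate sensing and interferon genes moved less, with 28 of 29 higher and a median of 0.79. Their largest members were the transcription factors irf7 (3.13 ± 0.14) and irf8 (2.64 ± 0.11). Complement and coagulation genes all rose (22 of 22, median 1.99). Some were scarce at both stages: c3, the central complement protein, had 1.35, 1.81 and 2.02 CPM at stage 63, against 0.266, 0.0515 and 0.166 CPM at stage 60.

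Cell death genes showed one of the smaller medians, 0.67 against 1.02 over genes with a symbol. Of 26 tested, 25 were higher, beside 92.8% of genes with a symbol. Pro-death members of the BCL2 family were among the largest: BOK rose by 2.58 ± 0.17, bmf by 2.42 ± 0.076, bcl2l11 by 2.25 ± 0.079 and bax by 2.16 ± 0.099. bcl2l11 had 58.7, 58.6 and 55.0 CPM at stage 63, against 11.7, 12.2 and 12.3 CPM at stage 60. bax, which opens the mitochondrial outer membrane, had 25.1, 29.5 and 27.1 CPM at stage 63, against 6.50, 6.49 and 5.19 CPM at stage 60. The groups lay well apart in both genes. Secretory stress genes rose in 15 of 16 cases with a median of 0.98 and no change above 1.82, and 7 of 7 named cell cycle genes rose, among them the inhibitors cdkn2b (2.37 ± 0.20) and cdkn1a (0.68 ± 0.085) and the cycle-promoting genes cdk6 (1.80 ± 0.16) and top2a (0.76 ± 0.22). The mitotic cyclin ccnb1, named after its values were seen, had 108 counts over the stage 63 libraries and 1 over the stage 60 libraries.

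Ligands, receptors and effectors of several signalling pathways were higher, as were 92.8% of all tested genes with a symbol (median 1.02). All 42 genes of the TGF-beta, BMP and activin family rose (median 1.39), with INHBA, the activin subunit gene, at 32.3, 32.0 and 30.9 CPM at stage 63 against 0.959, 0.257 and 1.05 CPM at stage 60. ltbp3, ACVRL1 and tgfb2 rose by 2.93 ± 0.097, 2.86 ± 0.12 and 2.72 ± 0.11. Of 59 receptor tyrosine kinase genes 56 rose (median 1.39); PDGFRB, the receptor of mural cells, had 54.7, 66.9 and 70.1 CPM at stage 63, against 1.60, 1.85 and 2.26 CPM at stage 60. All 33 Notch, hedgehog and Hippo genes rose with a median of 1.66. The Notch ligand dll4 had 35.6, 35.9 and 34.8 CPM at stage 63, against 1.70, 1.49 and 1.71 CPM at stage 60, and the hedgehog ligand ihh had 3.90, 3.27 and 3.36 CPM at stage 63, against 0.0533, 0.103 and 0.166 CPM at stage 60. Wnt genes were more mixed in strength, with 33 of 39 called higher, 6 not called and a median of 1.00, the called share being below the 92.8% of genes with a symbol. Their largest changes were in notum, a Wnt-inactivating enzyme (2.88 ± 0.26), the receptor LGR5 (2.71 ± 0.22) and the nuclear effector lef1 (2.53 ± 0.13).

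Transcription factors of the early response list rose in 34 of 35 cases (median 1.48). sox4 had 138, 131 and 139 CPM at stage 63, against 6.71, 5.92 and 5.25 CPM at stage 60, and ets1 rose by 3.23 ± 0.090, runx1 by 2.89 ± 0.092 and fosl2 by 2.67 ± 0.080. egr1, an immediate early gene, had 76.4, 82.3 and 86.3 CPM at stage 63, against 19.97, 21.9 and 19.4 CPM at stage 60. It stood higher still, at 322 ± 3.02 CPM, in the dissected stage 63 tails without a notochord. Whether handling of the tissue moves its level was not tested. Hox and posterior patterning genes, which mark position along the body, moved less, with 16 of 19 higher and a median of 0.86, both below the 92.8% and 1.02 of genes with a symbol. Among the Hox genes themselves the largest change was 1.28 ± 0.15 (hoxd3).

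Skin markers changed in a graded way. All 32 epidermal genes rose, between 0.19 and 6.91 on the log2 scale, beside 92.8% of genes with a symbol. Their median was 1.97, against 1.02 over genes with a symbol. krt17, a keratin of activated and basal skin cells in mammals, had 1205, 1131 and 1216 CPM at stage 63, against 13.7, 7.41 and 8.51 CPM at stage 60. The desmosomal cadherin dsc3 had 353, 337 and 332 CPM at stage 63, against 16.2, 14.4 and 11.4 CPM at stage 60, and the basal-cell factor tp63 rose by 2.21 ± 0.065. Ionocyte and mucous cell markers were scarce, with 7 of 12 called higher, a smaller share than the 92.8% of genes with a symbol. For muc5b, a mucin gene, 353 counts at stage 63 stood against 3 at stage 60, a ratio of 100 after division by library totals with an exact 95% counting interval of 34.1 to 489. With TMM its log2 fold change was 5.73 ± 0.43, or 5.18 with stage 60 replicate 1 left out and 6.62 with replicate 2 left out.

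Of the vessel markers, all 30 endothelial and lymphatic genes were called higher (median 2.22), beside 92.8% of genes with a symbol (median 1.02). cdh5, the cadherin of endothelial junctions, had 57.8, 54.0 and 53.4 CPM at stage 63, against 4.79, 5.92 and 5.52 CPM at stage 60, and esam rose by 3.32 ± 0.12. flt1, a VEGF receptor, had 8 counts over the stage 60 libraries, and its log2 fold change of 3.95 became 5.33 when stage 60 replicate 3 was left out. Among mural and smooth muscle genes 13 of 14 rose (median 1.64), including anpep (4.57 ± 0.084) and the pericyte gene rgs5 (2.38 ± 0.080), but the summed level was 1285 ± 27.0 CPM at stage 63 and 1622 ± 14.2 CPM at stage 60. That lower sum rests on des.2: without it, a choice made after the values were seen, the other 13 genes summed to 1281 ± 27.0 CPM at stage 63 and 422 ± 4.04 CPM at stage 60. The 3 erythrocyte markers with a symbol rose by between 0.41 and 1.43; globin genes were not among them.

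Of 18 neuronal markers, 14 rose and 4 were not called (median 1.33), a share below the 92.8% of genes with a symbol, and most were below 1 CPM at both stages. Per length, the highest member at stage 63 was gad1.2, an enzyme of GABA synthesis, at 66.3 TPM, with 113, 113 and 102 CPM at stage 63 against 3.73, 3.24 and 4.09 CPM at stage 60. All 10 glial markers rose (median 1.62): mpz, a myelin protein of Schwann cells, had 87.9, 102 and 100 CPM at stage 63, against 31.2, 31.8 and 27.6 CPM at stage 60. All 12 pigment cell genes rose (median 1.38), with the largest change (3.71 ± 0.080) in gpnmb, which macrophages also express in mammals, with 2351, 2126 and 2010 CPM at stage 63 against 170, 161 and 164 CPM at stage 60. Of 6 genes of myogenic progenitors 5 rose (median 1.22), a share below the 92.8% of genes with a symbol. Muscle wasting genes rose in 8 of 8 cases, with no change above 1.24. Their median of 0.71 was below the 1.02 of genes with a symbol. fbxo32, trim63, actc1 and ckm, the usual readouts of muscle wasting and muscle mass, carry no symbol in the authors' tables.

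**Figure D5:**
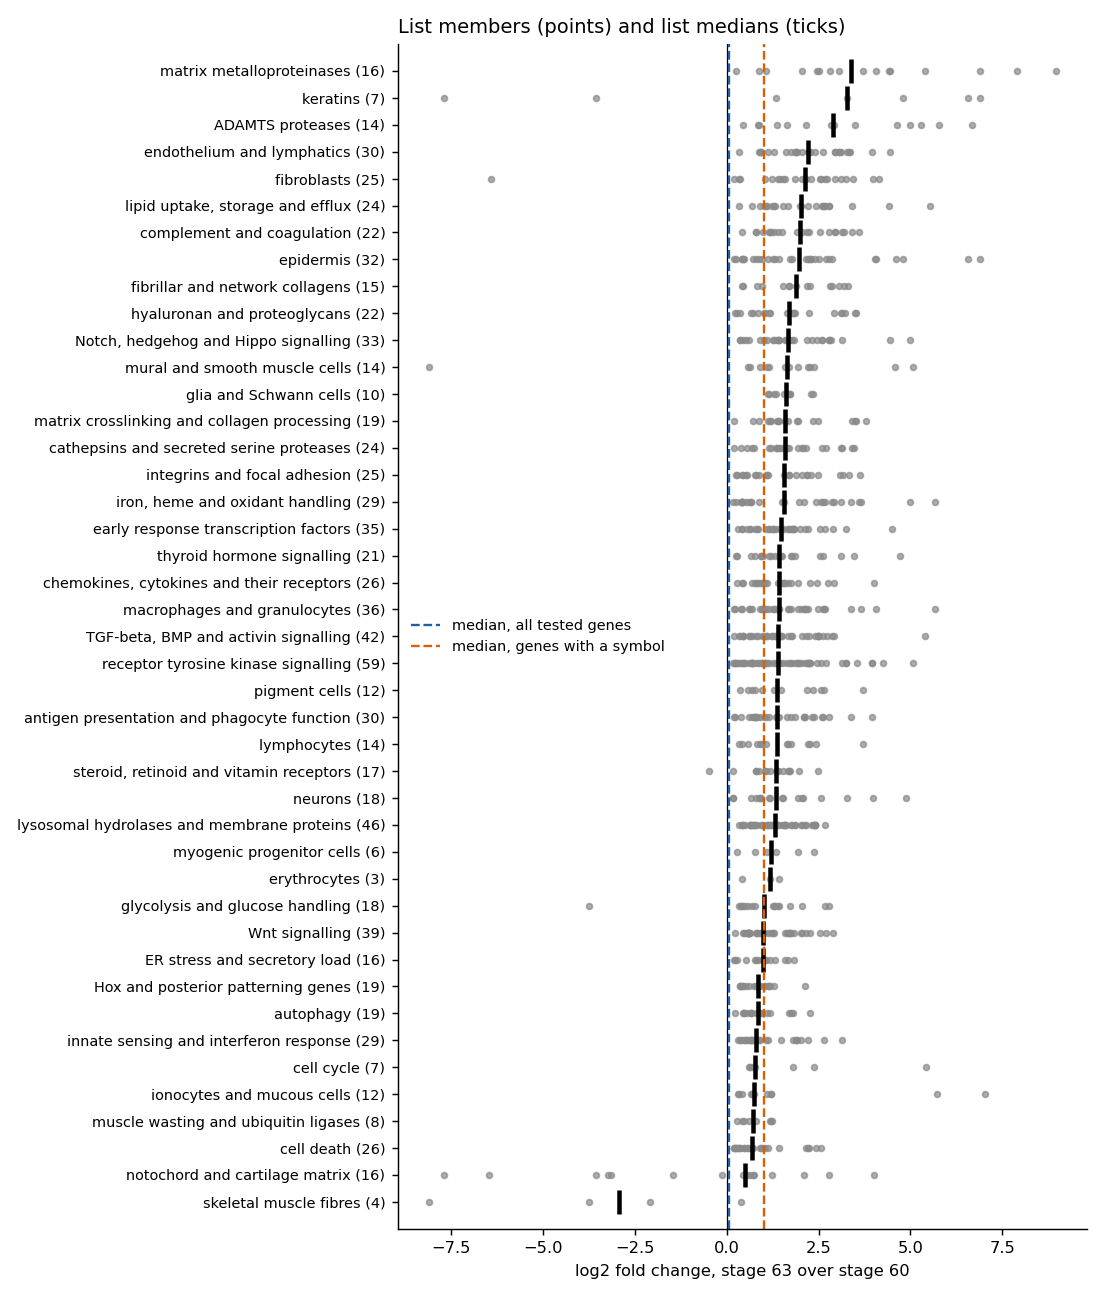
Log2 fold change of stage 63 over stage 60 (x axis) for the tested members (points) and their median (tick) in each list with at least 3 tested members, whose number is in brackets, ordered by median. Dashed lines give the median of all tested genes (0.05) and of genes with a symbol (1.02); metalloproteinases lead at 3.38, and points far below 0 belong to des.2, krt18l, vim.2 and a few other genes, some in several lists. Members with few or no counts at stage 60, such as muc5b, have imprecise values.

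The named genes that fell are few and share an origin. Of the 40 tested genes with a symbol outside the authors' stage list, 87.5% (35 genes) were called lower and none inside it was. All 35 come from a further list by the authors, of genes with an FPKM ratio above 2 between whole tails and tails without a notochord at stage 63; 5 of the 35 lie above 0 with library size alone. They are thus genes for which a source in the notochord had been part of the choice, and they do not represent the 5758 genes called lower. Lower genes without a symbol held 38.9 ± 0.104% of counts at stage 63 and 80.1 ± 0.198% at stage 60, a direction largely set by choosing genes called lower. They cannot be described by function here.

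Intermediate filament genes were among the named genes that fell furthest. des.2, a desmin gene, the filament protein of muscle, had 4.36, 4.30 and 4.49 CPM at stage 63, against 1192, 1211 and 1195 CPM at stage 60, a log2 fold change of −8.09 ± 0.19. krt18l, a relative of keratin 18, had 0.970, 1.15 and 0.799 CPM at stage 63, against 202, 195 and 199 CPM at stage 60 (−7.68 ± 0.11). vim.2, a vimentin gene, had 9.98, 9.18 and 10.4 CPM at stage 63, against 847, 836 and 838 CPM at stage 60 (−6.41 ± 0.11). With krt8 these 4 genes fell between 11.8-fold and 273-fold. All 4 were named by a rule that took the largest falls among genes whose groups did not overlap. In stage 63 tails without a notochord des.2 stood at 0.467 ± 0.433 CPM and vim.2 at 0.527 ± 0.303 CPM; both genes were selected by the authors on that difference.

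The list of notochord and cartilage matrix genes was divided. Of the 16 tested genes of that list, 9 rose, 6 fell and foxa2, which regulates notochord and floor plate, was not called, with 0.944, 1.15 and 0.775 CPM at stage 63 against 0.799, 1.49 and 0.773 CPM at stage 60. The list median was 0.50, and the summed level was 537 ± 6.26 CPM at stage 63 and 1840 ± 20.2 CPM at stage 60. That lower sum rests on krt8 and krt18l: without them, a choice made after the values were seen, the other 14 genes summed to 428 ± 6.95 CPM at stage 63 and 366 ± 9.26 CPM at stage 60. Among the matrix genes that rose were hapln3, a link protein (2.77 ± 0.083), and cilp, a cartilage matrix protein (2.11 ± 0.073), both named after their values were seen. Those that fell all come from the authors' notochord list. chad, chondroadherin, had 0.689, 1.15 and 0.846 CPM at stage 63, against 81.3, 72.3 and 81.1 CPM at stage 60. cnmd, chondromodulin, an inhibitor of vessel growth in cartilage, had 5.61, 6.57 and 6.41 CPM at stage 63, against 57.3, 58.2 and 58.7 CPM at stage 60. COL9A1, a collagen of cartilage and notochord sheath, had 4.19, 4.16 and 4.98 CPM at stage 63, against 41.3, 35.6 and 42.6 CPM at stage 60. Log2 fold changes were −6.46 ± 0.12, −3.23 ± 0.078 and −3.16 ± 0.096. The groups did not overlap, as in 85.4% of all tested genes. mgp, matrix Gla protein, fell by 2.46 ± 0.085 on the log2 scale.

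The brachyury genes, transcription factors that define the notochord, parted. t2 had 9.88, 9.53 and 8.53 CPM at stage 63, against 24.2, 27.5 and 25.4 CPM at stage 60, a fall of 1.47 ± 0.085 on the log2 scale. tbxt had 4.19, 4.22 and 3.83 CPM at stage 63, against 2.61, 2.16 and 2.60 CPM at stage 60, and rose by 0.73 ± 0.16. hapln1, a link protein of cartilage matrix, was also called higher, from 6 counts over the stage 60 libraries. olfm4, a secreted glycoprotein, had 312, 281 and 265 CPM at stage 63, against 3.68, 3.45 and 2.93 CPM at stage 60. In stage 63 tails without a notochord it stood at 23.7 ± 4.26 CPM. Its level was thus low in stage 60 tails although they keep the notochord.

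The skeletal muscle list had 4 tested genes, of which 3 fell, too few to follow muscle as a whole. pgam2 had 50.6, 51.6 and 48.2 CPM at stage 63, against 685, 659 and 681 CPM at stage 60 (−3.75 ± 0.075). myl3, a myosin light chain of slow muscle and heart, had 2.71, 3.44 and 3.31 CPM at stage 63, against 13.3, 13.4 and 13.6 CPM at stage 60 (−2.09 ± 0.20). pygm, the glycogen phosphorylase of muscle, went the other way by 0.39 ± 0.13 (adjusted p = 0.011 in edgeR), with 25.0, 27.4 and 29.5 CPM at stage 63 against 21.9, 20.5 and 19.9 CPM at stage 60. gatm, which makes the creatine precursor guanidinoacetate, had 0.153, 0.402 and 0.235 CPM at stage 63, against 45.8, 42.0 and 45.6 CPM at stage 60, a 170-fold lower level. All 3 muscle genes that fell are on the authors' notochord list, and in stage 63 tails without a notochord pgam2 stood at 16.7 ± 1.68 CPM and myl3 at 1.42 ± 0.800 CPM. c3orf49, a gene whose role is not described here, fell by 4.87 ± 0.10.

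Further named genes rose steeply from a floor. The amino acid transporter slc6a14.2 had 29.8, 27.4 and 24.9 CPM at stage 63, against 0.266, 0.0515 and 0.0552 CPM at stage 60, and c1qtnf5, a C1q-related secreted protein, had 15.6, 16.8 and 16.9 CPM at stage 63, against 0.320, 0.0515 and 0.166 CPM at stage 60. With 7 and 10 counts over the stage 60 libraries, the size of these changes is loosely fixed. That of slc6a14.2 was 7.74 ± 0.31, or 8.91 with stage 60 replicate 1 left out, and that of c1qtnf5 was 6.50 ± 0.20, or 7.22 with the same library left out.

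At the other end, the abundant named genes that changed least were gpt, nfe2l2, arpc2, cd74, dpysl3 and gdi2, with log2 fold changes between 0.18 and 0.19. The authors' selection sets this floor, as the smallest log2 fold change in their stage list was 0.16. Genes nearer to no change mostly carry no symbol here. gpt, alanine aminotransferase, had 139, 181 and 195 CPM at stage 63, against 158, 149 and 149 CPM at stage 60, with overlapping groups and an adjusted p of 0.46 in edgeR's quasi-likelihood test. nfe2l2, a regulator of the oxidant response, had 228, 243 and 251 CPM at stage 63, against 215, 212 and 210 CPM at stage 60, and its adjusted p of 0.032 in edgeR's quasi-likelihood test was above 0.05 with RLE factors (0.080) and in DESeq2 (0.094). In the authors' deposited table the same genes have FPKM ratios of stage 63 over stage 60 between 2.00 and 2.02, just inside its limit of 2. The difference is the scaling: with library size alone their log2 fold changes were between 1.00 and 1.01.

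Of the genes without a symbol, ENSXETG00000001040 had 117, 102 and 96.2 CPM at stage 63, against 0.373, 0.309 and 0.387 CPM at stage 60, and ENSXETG00000006440 had 11.5, 10.4 and 8.74 CPM at stage 63, against 0.107, 0 and 0.110 CPM at stage 60. ENSXETG00000024537 had 0.536, 0.430 and 0.329 CPM at stage 63, against 130, 136 and 132 CPM at stage 60, and ENSXETG00000020335 had 0.281, 0.143 and 0.329 CPM at stage 63, against 71.7, 64.9 and 71.5 CPM at stage 60. These were the steepest changes in each direction among genes without a symbol that reach 10 CPM in the higher group. In all, 20 genes rose and 18 fell at least 100-fold.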

How the data were processed

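Libraries were made from total RNA of tails with an Illumina TruSeq kit, per the labels' protocols, and the submitters' processing notes name STAR 2.5.4a and featureCounts 1.5.2. Per the file headers, the deposited table gives raw counts for each Ensembl gene, its scaffold position and its length. No source used here names the build or the strand setting, so reads of overlapping or antisense genes may be mixed. Per the file headers, 3 further deposited tables list genes the authors selected, with a group's mean FPKM and a ratio between groups. Over 8360 genes their FPKM equalled counts divided by library total and length, with no composition factor. Gene symbols were taken from these tables, matched by gene identifier: 6361 genes, of which 5612 were tested. No column was left unmapped.

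The model was edgeR's quasi-likelihood test (version 4.0.16 in R 4.3.3) with a mean per group and no covariate, over all 9 libraries, after filterByExpr and TMM scaling, with a robust fit. TMM factors were 1.18 to 1.22 at stage 63 and 0.672 to 0.690 at stage 60. The approximate SE was obtained as the log2 fold change over the root of F. TPM was computed from counts and lengths. The edgeR test was also tried on simulated counts built from this fit, in which few genes changed, as many up as down. Changes in these data are far broader, so that trial does not cover the scaling. Shares of counts were compared by a two-sided exact permutation test. The counting interval covers counting error only. No pair of replicates was alike within counting error (chi-square of at least 2.53 per degree of freedom over genes with at least 10 counts).

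Earlier results of these data were known when the members, alternatives, naming rule and 43 gene lists were chosen. The rule took, from called genes with a symbol, no overlap and a higher-group mean of 10 CPM or more, the 12 highest and 8 lowest changes. It added the 6 most abundant genes per stage by TPM, up to 4 members per list by size of change at 1 CPM or more, members against their list's direction, up to 6 least changed genes, 4 genes without a symbol, and a fixed set of 29 genes. It gave 193 genes, not all of which are described; 10 of the fixed set had no named row. Scaffold neighbours, ADAMTS proteases and keratins were added after values were seen. Symbols carried by more than 1 gene (3 in the lists, ddr2 among them) are counted as separate genes. Alternatives were other scalings (library size alone, RLE, upper quartile), no filter, DESeq2 1.42.0, limma-voom (limma 3.58.1), 6 libraries only, a replicate block, an adjusted p under 0.01 and leaving out each library. Groups of 3 are too small for the search for single outlying libraries. A few genes named by the rule are not reported here.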

Additional observations from a re-analysis of the deposited data

How the results depend on the processing

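Counts of genes called moved by less than 1.5 times with RLE or upper-quartile factors, no filter, DESeq2, limma-voom, 6 libraries only and a limit of 0.01, between 5633 and 6420 higher and between 5394 and 5887 lower. Library size alone gave 9501 higher and 2821 lower, 77.1% of calls higher against 51.3% with TMM. The median log2 fold change of all tested genes was 0.872 with library size alone, 0.0189 with RLE, 0.0588 with upper-quartile factors, 0.0652 without a filter, 0.0196 in DESeq2, 0.0470 with 6 libraries, and 0.0389 to 0.0606 without single libraries. Without single libraries 5893 to 5979 genes were higher and 5612 to 5686 lower. Replicate numbers are shared between stages, but same-numbered libraries did not deviate together (correlations across genes of 0.0024, 0.0349 and −0.0062); a replicate block gave 6081 higher, 5782 lower and a median of 0.0474. The share of counts in the leading genes differed by −15.0 percentage points for the top 100, by −1.15 for the top 10 and by −12.3 for the longest list tried. The mitochondrial share differed by 2.16 points, and by 0.965 without its 2 most counted genes, an alternative chosen after seeing the data. Among 193 named genes, crhr1.1 reversed to 0.33 with library size alone, and foxa2, not called, to 0.70 with library size alone; without single libraries foxa2 lay between −0.28 and 0.27 (0.0208 without stage 63 replicate 3). With other scalings, tools or libraries, calls appeared or disappeared in gpt, nfe2l2, arpc2, cd74 and gdi2; at an adjusted p under 0.01 those of nfe2l2, arpc2, cd74, gdi2 and pygm were lost. The summed CPM of notochord and cartilage matrix genes differed by −1303, and by 62.7 without krt8 and krt18l; that of mural genes by −337, and by 859 without des.2. Both were tried after seeing the data. Genes under 1 CPM varied by a median of 34.8% between stage 60 libraries, which limits how well the size of their changes is known.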
